A study of Mus musculus with 6 samples.

Results

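The long noncoding RNAs measured best in activated mouse CD4+ T cells are described here, in cells cultured with the compound CpdA and in cells cultured without it. Members were chosen by 2 features of the deposited gene table: a gene type of lincRNA, antisense or processed_transcript, and a mean level of at least 5 CPM (the count scaled by the total count of the library) over all 6 libraries. The second feature is a measured value, so the levels themselves are a description. The rule took 157 genes of 2423 with those types and of 21139 genes in all, namely 84 lincRNAs, 26 antisense genes and 47 processed transcripts. The last 3 inside the threshold were 2310010J17Rik at 5.12, Gm16565 at 5.11 and Gm9917 at 5.003 CPM, and the first 3 outside were Ptpmt1 at 4.98, 2810002D19Rik at 4.95 and RP24-159O13.1 at 4.89 CPM.

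The study asked how an agonist of the fatty acid receptor Gpr120 changes gene expression in CD4+ T cells. Splenic CD4+ T cells of C57BL/6J mice were stimulated through CD3 and CD28 with antibodies, for 2 days. The CpdA group (3 libraries) received the Gpr120 agonist CpdA at a labelled 20, in a unit read here as µM, and the medium group (3 libraries) received medium alone. Both groups carry the activation, and no resting cells were analysed here. The sources used here do not give the age, sex or number of mice or any vehicle in the medium group. Nor do they say whether replicate libraries stem from different cultures, so the p-values below cover the spread between libraries, which may be technical.

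Long noncoding RNAs are transcribed and often spliced like messenger RNAs but are not translated into a known protein. Some act in the nucleus, such as Neat1, the scaffold of the paraspeckle, and Xist, which coats and silences an X chromosome. Others are known mainly for what is cut out of them: snoRNA host genes carry in their introns the small nucleolar RNAs that guide chemical modification of ribosomal RNA, and miRNA host genes carry miRNA hairpins.

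The snoRNA hosts were set apart from the rest. Of the 157 members 18 were hosts: 7 by their deposited name (Gas5, Snhg1, Snhg4, Snhg5, Snhg6, Snhg7 and Snhg12), 4 by their current RefSeq name (9430008C03Rik, now Snhg17; Gm11974, now Snhg15; RP24-439I22.1, now Snhg14; and 2810008D09Rik, now Snhg20) and 7 because an annotated snoRNA lies inside them on their strand (2410006H16Rik, 1110038B12Rik, 2410004N09Rik, 2900076A07Rik, 2700038G22Rik, Rab26os and Dancr). In the GENCODE M21 annotation, Gas5 holds 10 snoRNA genes, Snhg1 8, Snhg12 5 and 2410006H16Rik 3. The small RNA inside 2900076A07Rik is a snoRNA in GENCODE and the miRNA Mir1839 in RefSeq, so its place among the hosts is uncertain.

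Many snoRNA hosts, like ribosomal protein genes, are known to start transcription inside a run of pyrimidines and to be degraded after splicing by nonsense-mediated decay. The 7 hosts in which a run of 5 or more C or T bases on the gene's strand includes a RefSeq start base are printed here, with 35 bases before the start and 35 from it (RefSeq, GRCm38.p6); capitals mark the run.
Gas5: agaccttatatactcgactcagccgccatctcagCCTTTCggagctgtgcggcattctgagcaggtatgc
2410006H16Rik: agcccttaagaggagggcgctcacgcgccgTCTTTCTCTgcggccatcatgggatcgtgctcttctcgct
Snhg12: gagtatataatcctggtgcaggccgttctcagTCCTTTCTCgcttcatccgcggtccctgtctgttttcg
1110038B12Rik: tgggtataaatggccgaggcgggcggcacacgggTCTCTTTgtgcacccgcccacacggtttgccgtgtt
Snhg17: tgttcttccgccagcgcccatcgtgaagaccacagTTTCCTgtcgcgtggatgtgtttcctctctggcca
Snhg7: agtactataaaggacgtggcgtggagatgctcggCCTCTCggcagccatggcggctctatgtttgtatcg
Rab26os: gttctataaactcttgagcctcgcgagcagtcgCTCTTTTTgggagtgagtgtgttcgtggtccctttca
These windows lie at chr1:161035131-161035200 (Gas5, + strand), chr11:62602842-62602911 (2410006H16Rik, + strand), chr4:132308643-132308712 (Snhg12, + strand), chr17:34952434-34952503 (1110038B12Rik, - strand), chr2:158361475-158361544 (Snhg17, - strand), chr2:26640210-26640279 (Snhg7, - strand) and chr17:24528216-24528285 (Rab26os, + strand). Of the 15 hosts with a promoter in the RefSeq table, these 7 (46.7%) had such a run, against 6 of 85 other members (7.06%) and 11.8% of all 27025 genes in that table. The letters TATA, searched on the gene's strand between 40 and 15 bases before the start, were found in 7 hosts (46.7%), in 3.53% of the other members and in 7.02% of all genes. The letters CACGTG, which read the same on both strands, occurred in 1 host promoter of 300 bases (6.67%), in 11.8% of the other members and in 8.09% of all genes. Of the hosts shown, Gas5, Snhg12, 1110038B12Rik and Snhg17 changed with CpdA and 2410006H16Rik, Snhg7 and Rab26os did not pass the test, so the run was found on both sides of the call.

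Of the miRNA hosts that changed, Mir17hg, Gm26667 and 1700016P03Rik carry the following mature miRNAs (RefSeq, GRCm38.p6; the seed, bases 2 to 8, is in capitals), which are shown because 3 of their seeds are used by a pair of miRNAs from one host.
mmu-miR-17-5p: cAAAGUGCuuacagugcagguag
mmu-miR-20a-5p: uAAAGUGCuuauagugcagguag
mmu-miR-18a-5p: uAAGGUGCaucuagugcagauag
mmu-miR-19a-3p: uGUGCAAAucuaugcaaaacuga
mmu-miR-19b-3p: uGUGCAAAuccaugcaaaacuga
mmu-miR-92a-3p: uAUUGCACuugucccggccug
mmu-miR-155-5p: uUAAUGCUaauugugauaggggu
mmu-miR-212-3p: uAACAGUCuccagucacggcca
mmu-miR-132-3p: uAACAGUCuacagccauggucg
The first 6 lie in Mir17hg, the host of the miR-17-92 cluster known to promote lymphocyte proliferation. In it miR-17-5p and miR-20a-5p share the seed AAAGUGC, and miR-19a-3p and miR-19b-3p share GUGCAAA. miR-155-5p, known to be induced on T-cell activation, lies in Gm26667. miR-212-3p and miR-132-3p, both in 1700016P03Rik, share the seed AACAGUC. The levels of the mature miRNAs were not analysed here.

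The libraries held 20247761 to 25952169 counts, and all 157 members passed the filter on low counts. Fold changes below are CpdA over medium on the log2 scale with their standard error (SE) from edgeR's quasi-likelihood test, and a gene was called at a Benjamini-Hochberg adjusted p under 0.05 over all 13507 genes tested. Summed markers of CD4+ T cells (8 genes) lay between 2426 and 2473 CPM in CpdA and between 2589 and 2624 CPM in medium, with 1 called higher and 6 lower. The 2 CD8 T-cell markers summed to 7.33 to 9.40 CPM in CpdA and 7.995 to 8.84 CPM in medium, and the 5 B-cell markers to 25.8 to 30.5 CPM in CpdA and 24.6 to 30.1 CPM in medium. The 4 NK-cell markers stayed at or under 1.20 CPM in CpdA and 1.49 CPM in medium, while 5 markers of stroma and endothelium summed to 59.3 to 67.0 CPM in CpdA and 74.5 to 78.6 CPM in medium, with 1 called lower. Markers of plasma cells summed to 20.0 to 22.4 CPM in CpdA and 24.0 to 25.1 CPM in medium, of neutrophils to 5.93 to 6.35 CPM in CpdA and 7.35 to 8.30 CPM in medium, and of macrophages to 4.01 to 4.204 CPM in CpdA and 4.70 to 5.63 CPM in medium. Those of dendritic cells summed to 6.86 to 8.22 CPM in CpdA and 6.12 to 6.56 CPM in medium, and those of erythroid cells and platelets lay at or under 3.06 CPM in all libraries. The part of cell composition in the results below was not tested, and in bulk RNA fewer cells of a type and less RNA per cell cannot be told apart.

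Library 2 differed most from the others within each group, more clearly in CpdA than in medium. A chi-square statistic per degree of freedom was 4.18 and 3.73 for the CpdA pairs with library 2, against 2.2 for CpdA 1 and 3. In medium it was 3.36 and 2.49, against 2.18 for medium 1 and 3. For 35 of the 157 members (22.3%) CpdA 2 was the highest of the CpdA libraries while medium 2 was the lowest of the medium libraries. In members lower with CpdA this brings the 2 libraries nearest each other, and in members higher with CpdA, such as Snhg1, it puts them furthest apart. The same held for 14.1% of protein-coding genes with a mean of at least 5 CPM. Among the members other than hosts with a mean of at least 50 CPM it held for 7 of 17 (41.2%), and among the hosts for 2 of 18. With 3 libraries a group, some genes have this order by chance alone, and the same order for other pairs of libraries was not counted. Results that turn on CpdA 2 are given with and without it. A chi-square statistic per degree of freedom between libraries ran from 2.18 to 4.18 within groups, so no library was a copy of another.

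With CpdA, called members lay in both directions, hosts mostly higher and other members mostly lower; this difference between hosts and other members was given no test, because the host group was drawn up with results known. Of the 157 members, 58 were called (36.9%), against 33.2% of all tested genes. Of these, 18 were higher with CpdA (11.5%, against 16.5% of all tested genes) and 40 lower (25.5%, against 16.7% of all tested genes). Among protein-coding genes with a mean of at least 5 CPM, 21.9% were higher and 19.8% lower. The median log2 fold change of the members was -0.07, against 0.0004 for all tested genes and 0.02 for those coding genes. The changes were small: log2 fold changes ran from -0.82 to 0.49, and 5 called members changed by more than 1.5-fold. The 3 CpdA values did not overlap the 3 medium values in 74 members (47.1%, against 43.9% of all tested genes), above them in 29 and below them in 45.

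**Figure D1:**
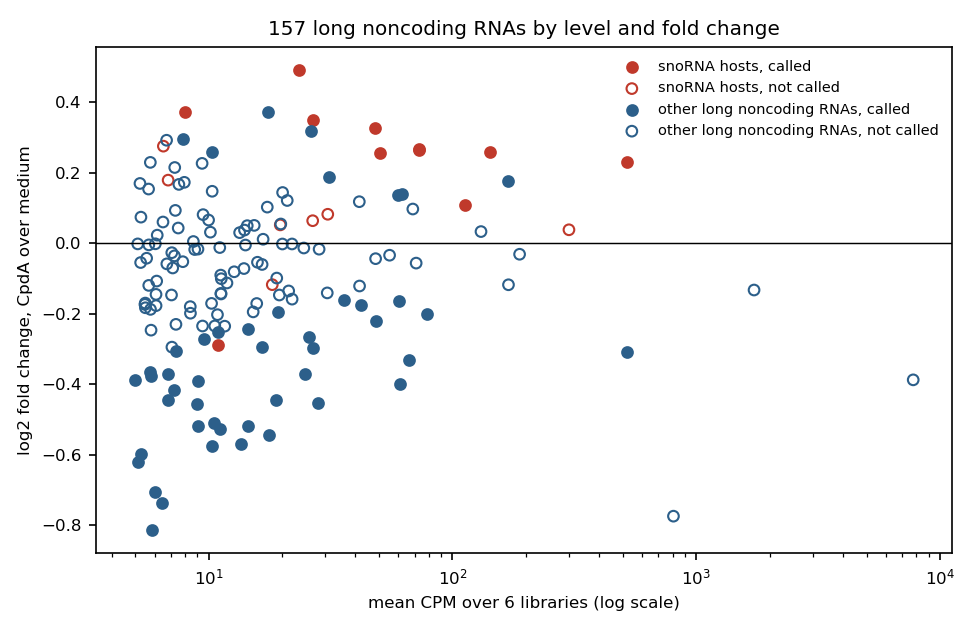
Log2 fold change of CpdA over medium (y axis) against mean CPM over 6 libraries (x axis, log scale) for all 157 long noncoding RNAs; filled points were called at an adjusted p under 0.05. The snoRNA hosts (red) lie mostly above 0, with 10 called higher and 1 lower, and the other members (blue) mostly below, with 8 called higher and 39 lower.

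Most snoRNA hosts were higher in the CpdA libraries. Of the 18, 10 were called higher (55.6%), 1 was lower (5.56%) and 7 were not called, against 16.5% higher and 16.7% lower of all tested genes. The median log2 fold change of the hosts was 0.24, and 16 of 18 estimates were positive. Gas5, known in human cells for binding the glucocorticoid receptor as well as for its snoRNAs, measured 572, 569 and 548 CPM in CpdA, against 487, 446 and 497 CPM in medium. Every CpdA library lay above every medium library, and the log2 fold change was 0.23 ± 0.03 (SE, adjusted p = 6.0e-07). Snhg1 measured 158, 159 and 150 CPM in CpdA, against 133, 125 and 130 CPM in medium (log2 fold change 0.26 ± 0.04, adjusted p = 1.4e-07). It shares a divergent start region with Slc3a2, the heavy chain of amino acid transporters, which was higher as well (log2 fold change 0.13, adjusted p = 0.00057).

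The furthest change among the hosts was that of Snhg4, which measured 27.1, 27.97 and 27.8 CPM in CpdA, against 18.5, 19.1 and 20.95 CPM in medium (log2 fold change 0.49 ± 0.07, adjusted p = 1.9e-07). The groups were well separated, and the medium libraries spread more than the CpdA libraries. The span of Snhg4 overlaps an exon of the coding gene Gm28285 on the same strand, so reads may be divided between these genes. Snhg5 measured 58.6, 51.8 and 51.1 CPM in CpdA, against 41.7, 41.2 and 44.5 CPM in medium (log2 fold change 0.33 ± 0.05). Snhg15 measured 32.5, 28.8 and 29.1 CPM in CpdA, against 23.3, 23.5 and 23.5 CPM in medium (log2 fold change 0.35 ± 0.06). In both, CpdA 1 was the highest library of all. Snhg12 measured 80.4, 78.5 and 81.9 CPM in CpdA, against 67.5, 63.6 and 67.5 CPM in medium (log2 fold change 0.27 ± 0.04).

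1110038B12Rik, which holds 2 snoRNA genes, measured 82.7, 76.8 and 80.3 CPM in CpdA, against 64.0, 64.9 and 69.1 CPM in medium (log2 fold change 0.27 ± 0.04). Snhg17 measured 58.0, 53.8 and 54.2 CPM in CpdA, against 48.6, 46.2 and 43.2 CPM in medium (log2 fold change 0.26 ± 0.05). In these 2, as in Snhg12, the groups did not overlap. Snhg6 differed less, with 115, 119 and 120 CPM in CpdA and 109, 110 and 107 CPM in medium (log2 fold change 0.11 ± 0.04, adjusted p = 0.018). Its call ended without medium 3 (log2 fold change 0.10, adjusted p = 0.081) or CpdA 3 (0.10, adjusted p = 0.080), and its adjusted p ran from 0.0099 to 0.081 over the alternatives tried. 2700038G22Rik, with 10.1, 8.09 and 9.01 CPM in CpdA and 7.61, 6.01 and 7.26 CPM in medium, was called higher (log2 fold change 0.37 ± 0.12, adjusted p = 0.010), but not without medium 2 (0.27, adjusted p = 0.093) or CpdA 1 (0.29, adjusted p = 0.080); over the alternatives its adjusted p ran from 0.0048 to 0.093.

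The one host called lower was 2900076A07Rik, with 9.86, 9.75 and 9.96 CPM in CpdA and 12.2, 11 and 12.7 CPM in medium (log2 fold change -0.29 ± 0.10, adjusted p = 0.016). Without medium 3 it was not called (log2 fold change -0.24, adjusted p = 0.11), and over the alternatives its adjusted p ran from 0.0086 to 0.11. The 7 hosts that did not pass the test had estimates from -0.12 for Snhg20 to 0.28 for Dancr, with 0.05 for Snhg7, 0.06 for Snhg14, 0.08 for 2410004N09Rik (now Epb41l4aos) and 0.18 for Rab26os. 2410006H16Rik, the host with the highest level per length (651 FPKM, reads per gene length and library total), measured 311, 305 and 301 CPM in CpdA and 297, 291 and 299 CPM in medium. Its CpdA values all lay above its medium values, but the difference of 0.04 ± 0.03 on the log2 scale was not called (adjusted p = 0.34). Dancr, known as an inhibitor of differentiation in human progenitor cells, passed the test without CpdA 2 (log2 fold change 0.38, adjusted p = 0.026; adjusted p from 0.026 to 0.40 over the alternatives).

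**Figure D2:**
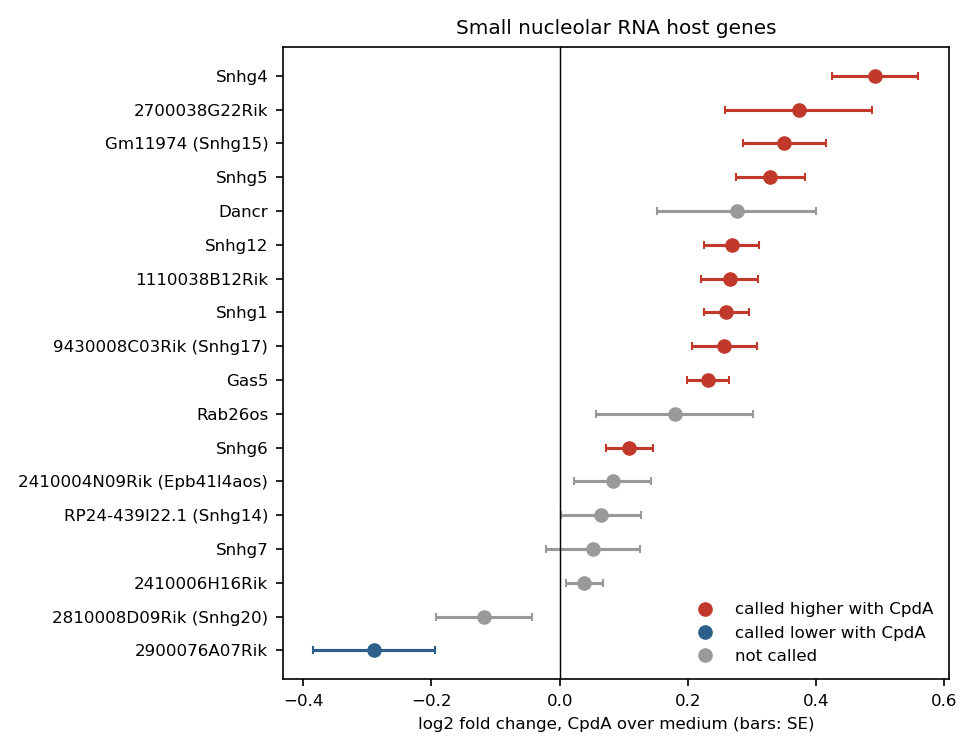
Log2 fold change of CpdA over medium (x axis; bars show the SE of the fit over 3 libraries a group) for the 18 snoRNA host genes, ordered by fold change. Estimates run from -0.29 for 2900076A07Rik to 0.49 for Snhg4, and 16 of 18 lie above 0.

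Genes for the proteins that bind and assemble snoRNAs were mostly higher with CpdA too. Of 17 genes for box C/D and H/ACA snoRNP proteins and their assembly factors, 10 were called higher and 0 lower, with a median log2 fold change of 0.18; of protein-coding genes with a mean of at least 5 CPM, 21.9% were higher and 19.8% lower. Nop56 averaged 321 CPM in CpdA and 220.0 CPM in medium, and Nop58 averaged 208 CPM in CpdA and 145 CPM in medium; both are core box C/D proteins. Dkc1, the pseudouridine synthase of H/ACA particles, averaged 133 CPM in CpdA and 93.2 CPM in medium. Of 17 nonsense-mediated decay genes, 5 were higher and 4 lower (median 0.04), which is near those shares. The helicase Upf1 was higher (log2 fold change 0.13) and the endonuclease Smg6 lower (-0.30). These lists are named by function and were drawn up with earlier results of these data known.

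The other 139 members were more often lower than higher in CpdA. They gave 8 calls higher (5.76%) and 39 lower (28.1%), against 16.5% higher and 16.7% lower of all tested genes. Their median log2 fold change was -0.12. Among them 6 of 75 lincRNAs were higher (8%) and 24 lower (32%), and 1 of 39 processed transcripts was higher (2.56%) and 11 lower (28.2%). Of 25 antisense genes 1 was higher (4%) and 4 lower (16%), and their share lower is near that of all tested genes. The split lay the same way with and without coding overlap: of 79 with no exon on a coding exon 5 were higher and 23 lower, and of 47 with an exon on a coding exon of the other strand 3 were higher and 13 lower. Counts for overlapping members may include reads of the coding gene, since the strand setting of the counting is not stated in those sources.

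Neat1, the architectural RNA of paraspeckles, was lower in CpdA. It measured 463, 477 and 466 CPM in CpdA, against 603, 549 and 578 CPM in medium (log2 fold change -0.31 ± 0.03, adjusted p = 8.3e-11). The CpdA libraries lay close together and all below medium. Of 13 paraspeckle protein genes 4 were higher and 0 lower (median 0.06), where 21.9% of coding genes with at least 5 CPM were higher and 19.8% lower. Among the higher ones were Sfpq (log2 fold change 0.22), Tardbp (0.20) and Ewsr1 (0.19). Nono, an essential paraspeckle protein, did not pass the test (0.04 ± 0.03).

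Malat1, a nuclear-speckle RNA encoded 22035 bases from Neat1, varied widely within the groups. It measured 425, 939 and 426 CPM in CpdA, against 1189, 815 and 1046 CPM in medium. CpdA 1 and CpdA 3 were nearly equal, at under the level of every medium library, while CpdA 2 lay above medium 2. The log2 fold change was -0.77 ± 0.42 and was not called (adjusted p = 0.255). Without CpdA 2 it was -1.27 (adjusted p = 0.025), and over the alternatives the adjusted p ran from 5.4e-05 with limma-voom to 0.47, with a negative estimate in each.

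Of the genes of X inactivation, Xist coats the inactive X, and Jpx and Ftx lie beside it and are known in mouse to promote its expression. Xist measured 1550, 1762 and 1647 CPM in CpdA, against 1871, 1699 and 1831 CPM in medium. The groups overlapped through CpdA 2 and medium 2, and the log2 fold change of -0.13 ± 0.05 was not called (adjusted p = 0.093). It was -0.18 (adjusted p = 3.5e-05) without CpdA 2 and -0.17 (adjusted p = 0.0040) without medium 2, and its adjusted p ran from 2.0e-05 to 0.24 over the alternatives. Ftx (log2 fold change -0.14 ± 0.10) and Jpx (-0.19 ± 0.13) were not called, although their CpdA values all lay below their medium values. Firre, an X-linked RNA of nuclear architecture, averaged 6.24 ± 1.17 CPM in CpdA and 6.07 ± 0.66 CPM in medium (SD, n = 3 each), and was not called.

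Kcnq1ot1, the paternally expressed antisense RNA that silences genes of the imprinted Kcnq1 domain in mouse, measured 11.7, 15.1 and 13.1 CPM in CpdA, against 16.1, 14.3 and 16.8 CPM in medium. It was called lower (log2 fold change -0.24 ± 0.09, adjusted p = 0.035) although CpdA 2 overlapped medium 2. Only leaving out CpdA 2 or medium 2 kept the call among the left-out libraries: the adjusted p was 0.091 without medium 1 (log2 fold change -0.23), 0.18 without medium 3 (-0.19), 0.22 without CpdA 1 (-0.16) and 0.11 without CpdA 3 (-0.23). Over all alternatives it ran from 0.0061 to 0.22.

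**Figure D3:**
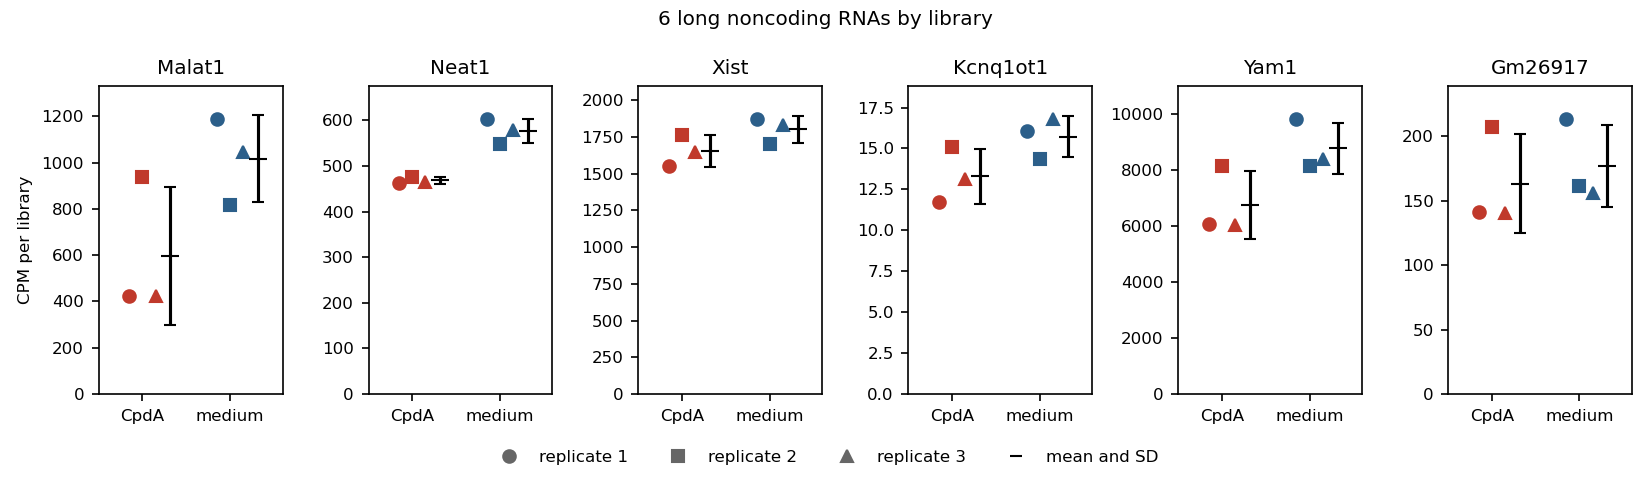
CPM per library (y axis, linear from 0, a scale of its own in each panel) for 6 long noncoding RNAs, with CpdA left of medium; symbols mark the replicate number and black bars the mean and SD of 3 libraries. In Malat1, CpdA 2 (939 CPM) lies apart from CpdA 1 and 3 (425 and 426 CPM), while the CpdA values of Neat1 lie within 463 and 477 CPM.

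The miRNA hosts moved in different directions. Of 10 members that hold a miRNA gene on their strand, 3 were called higher and 2 lower. Of all tested genes 16.5% were higher and 16.7% lower, and the count lower is near that share. The 10 include the snoRNA hosts Snhg4 (called higher), 2900076A07Rik (called lower) and Snhg20 (not called), which were counted above as well. Mir17hg measured 21.4, 18.1 and 20.0 CPM in CpdA, against 14.7, 15.5 and 15.3 CPM in medium (log2 fold change 0.37 ± 0.08, adjusted p = 0.00022). Its groups did not overlap, and it was the furthest-higher member outside the snoRNA hosts. Gm26667, the host of miR-155, measured 61.9, 65.7 and 61.3 CPM in CpdA, against 58.1, 55.7 and 56.8 CPM in medium (log2 fold change 0.14 ± 0.05, adjusted p = 0.019). The call ended without medium 2 (0.12, adjusted p = 0.064), medium 3 (0.14, adjusted p = 0.054) or CpdA 2 (0.11, adjusted p = 0.11), and over the alternatives the adjusted p ran from 0.011 to 0.11.

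1700016P03Rik, the host of miR-212 and miR-132, was lower. It measured 4.02, 4.35 and 6.07 CPM in CpdA, against 9.19, 7.45 and 7.52 CPM in medium (log2 fold change -0.74 ± 0.14, adjusted p = 3.7e-05), and an exon of it lies on an exon of Ovca2 on the other strand. All CpdA libraries lay below medium, with CpdA 3 the nearest. Mir22hg averaged 20.1 ± 1.6 CPM in CpdA and 20.0 ± 1.3 CPM in medium (SD, n = 3 each), and Dleu2, the host of miR-15a and miR-16-1, averaged 5.56 ± 0.45 CPM in CpdA and 4.90 ± 0.49 CPM in medium. Neither was called. A430104N18Rik, which holds miR-142 of blood cells, had a log2 fold change of -0.03 and was not called.

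Of the other well-known members most did not pass the test. Tug1 measured 75.2, 68.3 and 70.7 CPM in CpdA, against 67.1, 65.8 and 65.7 CPM in medium (log2 fold change 0.10 ± 0.04, adjusted p = 0.090), and passed it without CpdA 2 (0.13, adjusted p = 0.036; 0.036 to 0.36 over the alternatives). 1700020I14Rik, known as Cyrano, averaged 187 ± 4 CPM in CpdA and 190.0 ± 5.5 CPM in medium (SD, n = 3 each). Pvt1, which neighbours Myc, averaged 13.6 ± 0.7 CPM in CpdA and 13.2 ± 0.7 CPM in medium. Gm14005, known as Morrbid and as a regulator of the neighbouring death gene Bcl2l11 in mouse myeloid cells, averaged 10.3 ± 0.4 CPM in CpdA and 9.74 ± 0.53 CPM in medium. Of these coding neighbours, Bcl2l11 was lower (log2 fold change -0.42, adjusted p = 7.4e-09) and Myc higher (0.11, adjusted p = 0.014). RP23-307A6.1 averaged 133 ± 2.97 CPM in CpdA and 129 ± 4.47 CPM in medium, and Gm26532 averaged 6.62 ± 0.20 CPM in CpdA and 6.86 ± 0.31 CPM in medium. For these 5 long noncoding RNAs the difference was no more than 1.5 times the spread between libraries and was not called.

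A pair of rows at 1 place took most of the reads of all members. Yam1 (chr17:39846958-39848788, + strand, GRCm38) alone held 51.2% of the summed member CPM, and Gm26917 lies 712 bases from it. GENCODE M21 names the Yam1 gene Gm42418, and a gene typed rRNA on the other strand covers all of it. RefSeq names the Yam1 gene itself Rn18s-rs5 and types it as a pseudogene. Yam1 measured 6067, 8156 and 6029 CPM in CpdA, against 9821, 8138 and 8376 CPM in medium. CpdA 2 again lay with medium, and the log2 fold change of -0.39 ± 0.17 was not called (adjusted p = 0.17). Without CpdA 2 it was -0.55 (adjusted p = 0.036), and over the alternatives the adjusted p ran from 1.2e-05 to 0.37. Gm26917 measured 141, 207 and 140.4 CPM in CpdA, against 213, 161 and 156 CPM in medium, and was not called (log2 fold change -0.12 ± 0.24). The members without these 2 rows took 0.670, 0.741 and 0.671% of all counts in CpdA, against 0.789, 0.710 and 0.765% in medium, and the hosts took 0.163, 0.160 and 0.157% in CpdA, against 0.141, 0.135 and 0.143% in medium. Per length, Yam1 averaged 4241 FPKM over the 6 libraries, against a median of 5.80 FPKM for all members and 13.1 FPKM for protein-coding genes with at least 5 CPM.

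The 12 furthest-lower called members outside the snoRNA hosts whose groups did not overlap had log2 fold changes from -0.74 to -0.45, and most have no known role. After 1700016P03Rik came the lincRNA with the gene ID ENSMUSG00000100493, with 4.44, 4.39 and 4.999 CPM in CpdA and 7.41, 7.06 and 7.96 CPM in medium (log2 fold change -0.71 ± 0.13, adjusted p = 2.0e-05). Next was Gm16565, with 4.39, 4.32 and 3.45 CPM in CpdA and 5.98, 6.73 and 5.82 CPM in medium (-0.62 ± 0.14). Both share exon sequence on the same strand with a coding gene, so their reads may be divided between the genes; for Gm16565 it is Cd247, the zeta chain of the T-cell receptor complex, which was lower as well (-0.28). 1700001L05Rik measured 8.04, 8.44 and 8.57 CPM in CpdA, against 12.8, 11.5 and 12.9 CPM in medium (-0.57 ± 0.10). 5830416P10Rik measured 10.7, 11.6 and 10.6 CPM in CpdA, against 18.7, 14.4 and 15.7 CPM in medium (-0.57 ± 0.09). In both the CpdA libraries lay close together, well under medium.

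Gm16185 (log2 fold change -0.55), Gm16754 (-0.53), Gm16350 (-0.52), Gm27162 (-0.52), Gm19557 (-0.51), 2500002B13Rik (-0.46) and Atp10d (-0.45) completed the 12. Gm27162 measured 7.47, 7.82 and 7.06 CPM in CpdA, against 11.4, 10.5 and 10.02 CPM in medium. Its nearest coding gene, 147117 bases away, is Ets1, a transcription factor of T cells, which was lower (-0.26, adjusted p = 4.6e-10). Atp10d, named for a lipid flippase gene, was deposited as a processed transcript. GENCODE M21 types it as a polymorphic pseudogene and RefSeq as a transcribed pseudogene. It measured 25.5, 21.9 and 23.9 CPM in CpdA, against 34.6, 30.2 and 31.98 CPM in medium. Gm19705 had the lowest estimate of all members (-0.82, adjusted p = 0.0011), but its groups overlapped.

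**Figure D4:**
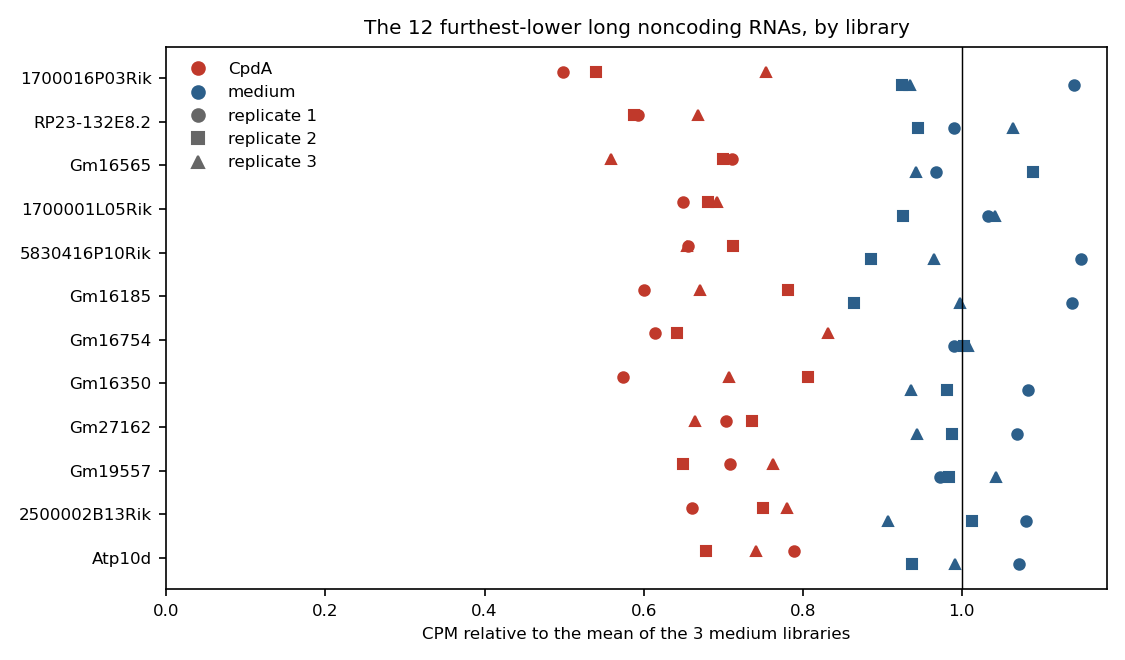
CPM of each library divided by the mean of the 3 medium libraries (x axis, linear from 0) for the 12 furthest-lower long noncoding RNAs whose groups do not overlap; red is CpdA (upper points of each row), blue is medium, and symbols mark the replicate number. All CpdA points lie left of all medium points of the same gene, as the choice of these genes fixes.

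The higher members outside the hosts were fewer and changed less. AI662270 measured 185, 181 and 174 CPM in CpdA, against 155, 159 and 160.1 CPM in medium (log2 fold change 0.18 ± 0.03, adjusted p = 3.9e-05). 5430416N02Rik measured 27.5, 30.1 and 30.3 CPM in CpdA, against 22.2, 24.8 and 23.1 CPM in medium (0.32 ± 0.07, adjusted p = 0.00015). In both every CpdA library exceeded every medium library. The nearest coding gene to AI662270, Slfn3 of the Schlafen family, was higher too (0.33), and that to 5430416N02Rik, the vesicle coat gene Sec31a, was lower (-0.12). RP23-273G4.1 (0.19 ± 0.06) was not called without medium 2 (0.13, adjusted p = 0.12; 0.0096 to 0.12 over the alternatives). Brip1os (0.14 ± 0.05) was not called without medium 1 (0.10, adjusted p = 0.15) or CpdA 1 (0.11, adjusted p = 0.093; 0.012 to 0.15 over the alternatives).

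9330175E14Rik, which starts divergently from Nlrc5, measured 11.4, 12.6 and 9.76 CPM in CpdA, against 8.94, 9.39 and 9.62 CPM in medium (log2 fold change 0.26 ± 0.10, adjusted p = 0.047). CpdA 3 was close to medium 3, and the call ended on leaving out any library but CpdA 3: the adjusted p was 0.13, 0.080 and 0.069 without medium 1, 2 and 3, and 0.094 and 0.29 without CpdA 1 and 2, where the log2 fold change was 0.16 without CpdA 2. Over all alternatives the adjusted p ran from 0.012 to 0.29. Nlrc5, the transactivator of MHC class I genes, was higher (log2 fold change 0.35, adjusted p = 6.4e-10). An exon of 9330175E14Rik lies on an exon of Nlrc5 on the other strand, so its count may include reads of Nlrc5.

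Called members and their coding neighbours mostly had the same direction. Of 20 called members other than hosts that overlap a tested coding gene, 15 had that gene called and 13 of these moved the same way. Of 23 that do not overlap their nearest tested coding gene, 17 had it called and 13 moved the same way. Of all coding genes with at least 5 CPM, 21.9% were called higher and 19.8% lower, and 39 of the 47 called members other than hosts were lower, which bears on how often directions match. No test was made of these counts, and reads of the pairs that overlap cannot be assigned to a strand here. Members that were not called were left out of the counts, and several of them also have a called coding neighbour, as Gm14005 has in Bcl2l11. Gm16350, with 9.86, 13.8 and 12.1 CPM in CpdA and 18.6, 16.8 and 16.1 CPM in medium, has an exon on one of Arhgef10, which fell by 0.63 on the log2 scale (adjusted p = 5.4e-14). Gm16185 lies within Slc25a36, a mitochondrial nucleotide carrier (-0.29), without overlap of exons. F730043M19Rik (-0.33) and Atxn7l1 (-0.31) start 96 bases apart in opposite directions, and both were lower.

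A few pairs went opposite ways. Ptprv measured 14.7, 14.1 and 15.9 CPM in CpdA, against 19.7, 17.2 and 17.7 CPM in medium (log2 fold change -0.30 ± 0.08, adjusted p = 0.0037). Its divergent partner Ptpn7, a phosphatase of the MAP kinases ERK and p38, was higher (0.21, adjusted p = 3.2e-06). The nearest coding gene to 5830416P10Rik, Smndc1 of the splicing machinery at 50634 bases, was higher as well (0.15, adjusted p = 0.0054), while the long noncoding RNA was lower. Within 5830416P10Rik, on the other strand, lies the member 4833407H14Rik, also called lower (-0.37, adjusted p = 0.015), though not in every fit. Reads of these overlapping members cannot be assigned to a strand here. Dusp5, the nearest coding gene to 4833407H14Rik at 66386 bases, was lower (-0.25, adjusted p = 9.7e-08).

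**Figure D5:**
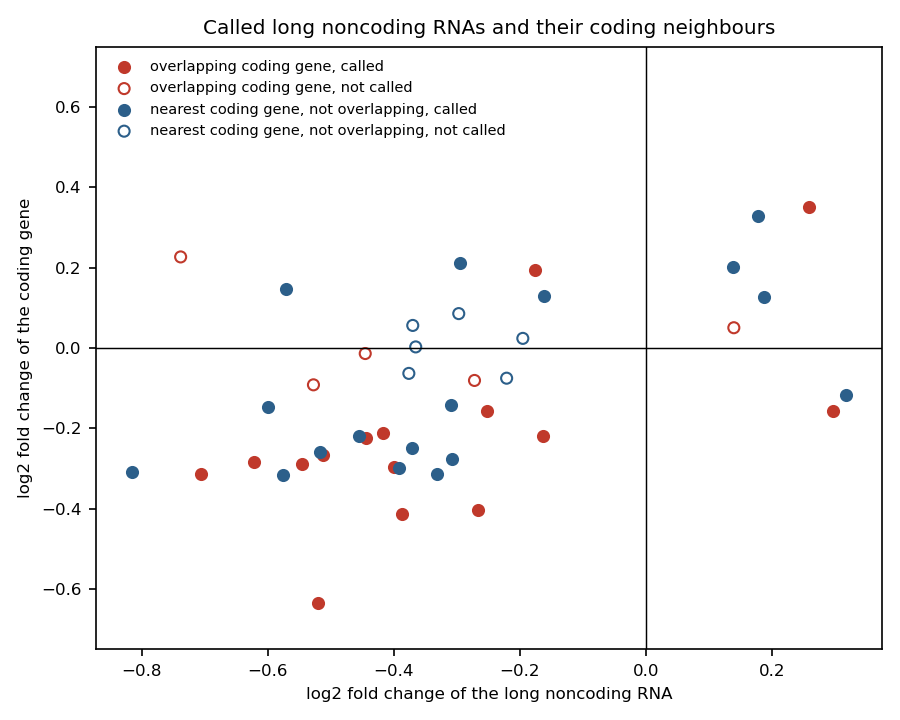
Log2 fold change of the overlapping or nearest tested coding gene (y axis) against that of each called long noncoding RNA other than the hosts (x axis), CpdA over medium; filled points have a called coding gene. Among the pairs with both genes called, 13 of 15 overlapping (red) and 13 of 17 not overlapping (blue) lie in the lower left or upper right of the plot.

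The nuclear exosome, which trims snoRNA precursors and degrades many unstable noncoding transcripts, was measured through 19 genes of its core and adaptors. Of these 10 were called higher and 3 lower, with a median log2 fold change of 0.12, against 21.9% higher and 19.8% lower of coding genes with at least 5 CPM. Exosc2, a core cap subunit, averaged 47.6 CPM in CpdA and 34.9 CPM in medium (0.44 ± 0.05), and Skiv2l2, the Mtr4 helicase, averaged 118 CPM in CpdA and 102 CPM in medium (0.21 ± 0.04). Zfc3h1, of the adaptor that targets polyadenylated nuclear RNAs, was lower (-0.15 ± 0.03, adjusted p = 0.00046).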

How the data were processed

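The deposited table gives raw read counts per gene and library, per the file headers, and FPKM values that the authors computed; count over gene length and library total returns each deposited FPKM (largest relative difference 1.86e-07). GRCm38, mm10 and CASAVA 1.8 are named in the submitters' processing notes. Aligner, counter, annotation, strand setting and any rRNA removal: not given in the sources used here. Every column of values was tied to its sample by name. Library totals ran from 20247761 to 25952169 counts; in the shallowest library a count of 0 leaves room for 0.148 CPM (3 counts, for counting error alone).

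Counts were tested with edgeR 4.0.16 (R 4.3.3): TMM scaling, filterByExpr (minimum count 10, minimum total 15; 13507 genes left), robust quasi-likelihood F-test without covariates, Benjamini-Hochberg adjustment over all genes tested. The SE is the log2 fold change divided by the square root of F. CPM uses library totals. DESeq2 1.42.0, limma-voom (limma 3.58.1), other scalings and filters, and fits without each library were alternatives. Of the members, 147 were matched by gene ID to GENCODE M21, which types 7 of them as protein_coding, and 123 to RefSeq (GRCm38.p6), the source of names and sequences. Exons of 63 members lie on a coding exon.

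The members, the function and marker lists and the host group were chosen with earlier results of these data known. Named with values were all hosts, the 12 members of highest mean CPM, the up to 12 furthest members in each direction among the other called members whose groups did not overlap, well-known long noncoding RNAs from a list, and the coding neighbours of these; members outside this rule (Gm19705, A430104N18Rik, F730043M19Rik) and the neighbours Slc3a2, Atxn7l1 and Ptpn7 were named after their values were seen. Some genes of these lists are not reported here.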

Additional observations from a re-analysis of the deposited data

How the results depend on the processing

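Over 14 alternative fits, the number of members called ran from 45 (DESeq2) to 63 (without CpdA replicate 2), against 58; 38 members, 8 of them hosts, were called in every fit, and 15 more were called in some alternative only. Leaving out 1 library gave 46 to 63 members, 9 to 12 hosts (against 11) and 3660 to 4336 of all genes (against 4483). Libraries of the same number showed no shared deviation from their group means, with correlations of -0.0213, -0.0147 and -0.000561. These values do not show whether the libraries were prepared in pairs. With the replicate block there were 51 members (15 higher, 36 lower), 10 hosts and 3936 genes called; among named members, Snhg6 (adjusted p = 0.053), Kcnq1ot1 (0.054) and 9330175E14Rik (0.070) were then not called and Xist was (0.030). Over all 14 fits the median log2 fold change of all tested genes lay between -0.0108 (DESeq2) and 0.01 (library totals alone).

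A mean of at least 2 CPM gave 22 higher and 61 lower of 325 genes, and one of at least 10 CPM gave 16 higher and 24 lower of 94. Of the 94 members with no exon on a coding exon, 37 were called (13 higher, 24 lower), fewer because fewer were counted. By deposited name alone, 6 of 7 hosts were called, and by a Snhg name or Gas5, 8 of 11, against 33.2% of all tested genes. These 2 host counts, and that of 57 members without those typed protein_coding in GENCODE M21, were chosen after seeing the data.

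Of 55 named members, no called one changed sign in any fit, and 4 uncalled ones did. Without 1 library, the log2 fold change ran from -0.332 to 0.037 for Gm26917, from -0.054 to 0.061 for Mir22hg, from -0.010 to 0.077 for Pvt1 and from -0.110 to 0.157 for Firre. Mir22hg was also above 0 with library totals alone (0.008), without a count filter (0.002) and with DESeq2 (0.001). The cause was not tested. Malat1, Yam1 and Xist passed the threshold with limma-voom and without robust estimation as well as without CpdA 2. At the lowest member levels the median SE of 0.12 (60 members other than hosts at 5 to 10 CPM) limits what could be called.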
